A study of Homo sapiens with 4 samples.

Results

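The 8 ATP-binding cassette (ABC) efflux pumps ABCC1, ABCC2, ABCC3, ABCC4, ABCC5, ABCC10, ABCB1 and ABCG2 were examined in HCT116, an established line of human colorectal cancer cells, with and without a knockout of C14orf159. They were found by gene symbol among the 26255 genes listed for each library, and all 8 were present. They were picked as a family with the results of the knockout comparison known, with ABCC2 as the gene that stood out. The knockout against control values of these genes are therefore a description, and no test of them is given. RNA sequencing covered 2 libraries labelled as C14orf159 knockout (KO replicates 1 and 2) and 2 libraries labelled as empty vector-transfected controls (EV replicates 1 and 2). The headers of the control files name AAVS1, a genomic site often used for neutral edits, and those of the knockout files sgDGLUCY, after the current name of C14orf159. Which of these the control cells carried, whether each group is 1 clone or a pool, and whether replicates were separate cultures is not given in the labels. The study asked how C14orf159, a protein of the mitochondrial matrix, bears on migration, invasion and spheroid growth.

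ABC efflux pumps use the energy of ATP to move compounds out of the cell. The ABCC pumps, also called multidrug resistance-associated proteins, carry organic anions, among them conjugates of drugs, bile pigments and hormones with glutathione, glucuronate or sulfate. ABCC2 sits in the apical membrane of hepatocytes, enterocytes and kidney tubule cells and empties into bile, gut lumen or urine. ABCC3 lies in the basolateral membrane and sends similar conjugates towards the blood. ABCB1 (P-glycoprotein) and ABCG2 (breast cancer resistance protein) export many uncharged, cationic or sulfated drugs and are best known for multidrug resistance of tumour cells.

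The promoter sequences of 3 ABCC pumps are shown because ABCC2 was the most abundant pump and the furthest from control in a KO library, ABCC5 was lower in both KO libraries by less, and ABCC4 overlapped between the groups. Each run holds the 250 bases before the RefSeq start site (GRCh38.p14), 5′ to 3′ on the gene's strand. Capitals mark matches to a searched motif on either strand, and positions are those of a match's leftmost base, with -1 for the last base before the start site. The windows are chr10:99782390-99782639 (plus strand) for ABCC2, chr3:184017885-184018134 (minus strand) for ABCC5 and chr13:95301452-95301701 (minus strand) for ABCC4.
ABCC2: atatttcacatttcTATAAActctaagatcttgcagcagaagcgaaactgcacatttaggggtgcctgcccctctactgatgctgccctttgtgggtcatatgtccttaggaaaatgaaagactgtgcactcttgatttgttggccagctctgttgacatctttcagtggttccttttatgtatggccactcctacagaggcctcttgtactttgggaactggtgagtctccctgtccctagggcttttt
ABCC5: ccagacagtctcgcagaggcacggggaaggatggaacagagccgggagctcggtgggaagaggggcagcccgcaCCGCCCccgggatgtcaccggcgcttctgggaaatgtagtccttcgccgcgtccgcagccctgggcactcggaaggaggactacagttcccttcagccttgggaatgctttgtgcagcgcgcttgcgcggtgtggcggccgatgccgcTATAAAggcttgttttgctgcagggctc
ABCC4: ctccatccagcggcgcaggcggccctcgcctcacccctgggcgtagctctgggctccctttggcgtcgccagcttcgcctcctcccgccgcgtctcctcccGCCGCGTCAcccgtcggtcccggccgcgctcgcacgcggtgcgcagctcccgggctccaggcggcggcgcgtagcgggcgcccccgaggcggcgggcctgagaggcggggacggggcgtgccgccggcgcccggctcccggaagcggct
The 3 windows differ in base composition. ABCC2 has 45.6% G and C with 1 CpG, ABCC5 64.8% with 21 CpGs, and ABCC4 80.4% with 42 CpGs, against a median of 58% over 35116 promoters of the same length. Of these promoters, 23.2% had a lower GC content than ABCC2, 66.5% a lower one than ABCC5 and 97.1% a lower one than ABCC4.

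Both strands of each window were searched for 7 motifs. That of the TCF/LEF factors was CTTTGA, and the antioxidant response element was searched as TGACNNNGC. The hypoxia response element was searched as ACGTG. The GC box had the letters GGGCGG, and the box bound by the factor NF-Y the letters CCAAT. For the factor AP-1 the letters were TGANTCA, and for the TATA box TATAAA. No match of one motif overlapped that of another in the 3 printed windows. ABCC2 held TATAAA alone, at position -236 from the start site, a match found in 10.7% of promoters. ABCC5 held TATAAA at -28 and GGGCGG on the opposite strand at -176, the second found in 42.6% of promoters. ABCC4 held TGACNNNGC on the opposite strand at -149, found in 10.9% of promoters. CTTTGA, found in 11.2% of promoters, was not among the letters of these 3 windows. In all, 6 of the 8 pumps had an entry in the RefSeq table, without ABCC1 and ABCC3, and 3 of them, those printed, had a single one. Expression was given per gene, so the data do not show which start site was used.

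Libraries were compared first. C14orf159 itself had 2.52 FPKM (fragments scaled to transcript length in kilobases and to library size in M, mega) in KO replicate 1 and 10.8 FPKM in KO replicate 2, against 16.2 and 16.4 FPKM in the EV controls. The replicates of the KO group stand further apart than those of the EV group. Among 1184 genes within 1.5-fold of the mean level of ABCC2, the log2 ratio had a robust SD of 0.21 for the KO pair and 0.08 for the EV pair. Depth, estimated from how much 1 fragment is worth in single-transcript genes, was 12.5 to 12.9 M fragments in the KO libraries and 12.99 to 13.4 M in the EV libraries. These depths are rough. Of 12 colorectal epithelial markers, 7 reached the minimum of 1 FPKM in at least 2 libraries, with both KO libraries above the controls for EPCAM (284 and 314 FPKM in KO cells, 237 and 236 in EV cells) and CDH1, below them for KRT20 (1.23 and 1.15 FPKM in KO cells, 1.80 and 1.63 in EV cells), and overlap for KRT8, KRT18, KRT19 and CDX2. CDX1 and CEACAM6 were listed at 0 throughout, and VIL1, LGALS4 and CEACAM5 stayed at or under 0.272 FPKM. None of 5 leukocyte, 5 fibroblast, 4 endothelial and 5 hepatocyte markers reached the minimum. The highest sum of any of these 4 lists was 1.31 FPKM in KO cells and 1.27 FPKM in EV cells, both for hepatocyte markers.

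ABCC2 was the most abundant of the 8 transcripts in every library and lay lower in both KO libraries. It had 31.0 FPKM in KO replicate 1 and 60.8 FPKM in KO replicate 2, against 89.2 and 89.1 FPKM in the EV controls. The groups did not overlap, and the KO replicates lay further from each other than KO replicate 2 lay from the controls. KO replicate 1 kept 34.8% and KO replicate 2 kept 68.2% of the EV mean. Group means were 45.9 ± 21.1 FPKM in KO cells and 89.2 ± 0.127 FPKM in EV cells (SD, n = 2 each). The difference was -1.02 on the log2(FPKM + 1) scale (SE 0.31). This SE, like those of the other genes, is the moderated one of the limma-trend fit, which borrows spread from all tested genes. The pooled SD of ABCC2 within the groups was 0.47 on that scale. Taken alone, KO replicate 1 differed from the EV mean by -1.49 and KO replicate 2 by -0.54. In a cell population, fewer cells with the transcript and less transcript per cell cannot be told apart. KO replicate 1, with less ABCC2, also had less C14orf159, and over 4 libraries no correlation is given.

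**Figure D1:**
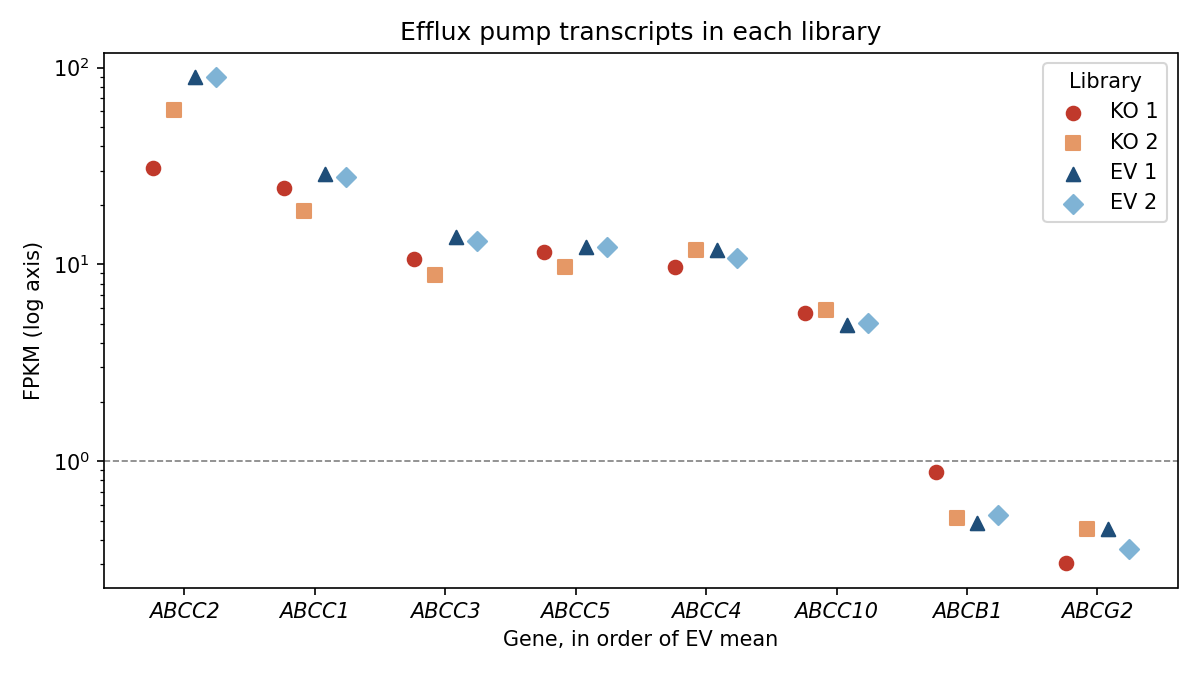
FPKM on a log axis for the 8 efflux pump genes, ordered by EV mean, with 1 point per library (KO replicates 1 and 2, EV replicates 1 and 2) and the minimum of 1 FPKM for testing as a dashed line. ABCC2 has 31.0 and 60.8 FPKM in the KO libraries and 89.2 and 89.1 FPKM in the EV libraries, and ABCB1 and ABCG2 lie under the line in all 4.

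Set against all 12701 genes that reached the minimum level, 42 genes (0.331%) were as low as ABCC2 or lower in KO replicate 1 relative to the EV mean, and 388 genes (3.05%) in KO replicate 2. A change past 1.5-fold of FPKM + 1, or 0.585 on the log2 scale, was reached by 2.32% of genes downwards and 3.49% upwards in KO replicate 1. For KO replicate 2 the shares were 2.46% downwards and 4.38% upwards. ABCC2 was past it in KO replicate 1 and short of it in KO replicate 2. None of the other 5 tested pumps was past it in either library, upwards or downwards. In KO replicate 2, however, ABCC1 (-0.577, 2.57% of genes as low or lower) and ABCC3 (-0.552, 2.92%) lay further down than ABCC2 (-0.544). ABCC4, ABCC5 and ABCC10 did not. In rank, ABCC2 stood at percentiles 77.6 and 87.7 of tested genes in the KO libraries, against 92.0 and 92.2 in the EV libraries.

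The sum over the 8 pumps, a level per length and not a count of molecules exported, was 94.6 and 117 FPKM in KO cells against 162 and 158.96 FPKM in EV cells. ABCC2 made up 32.8% and 52.1% of that sum in KO cells and 55.2% and 56.0% in EV cells. The other 7 pumps together had 63.5 and 55.9 FPKM in KO cells and 72.5 and 69.9 FPKM in EV cells. The sum was therefore lower in KO cells with ABCC2 and without it, and KO replicate 1 was the lower KO library only when ABCC2 was counted.

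Other pumps for conjugates were ABCC1 and ABCC3. ABCC1 exports glutathione conjugates such as leukotriene C4 across the basolateral membrane, and it had 24.6 and 18.6 FPKM in the KO libraries against 28.7 and 27.7 FPKM in the EV libraries. Both KO libraries lay below both controls, with KO replicate 2 the lowest. Group means were 21.6 ± 4.24 FPKM in KO cells and 28.2 ± 0.720 FPKM in EV cells (SD, n = 2 each), a log2 difference of -0.38 (SE 0.14). ABCC3 had 10.7 and 8.87 FPKM in KO cells against 13.8 and 13.2 FPKM in EV cells, again with KO replicate 2 the lowest and no overlap. Its log2 difference was -0.43 (SE 0.11). For both genes the order of the KO libraries was the reverse of that for ABCC2, since KO replicate 2 was at -0.58 and -0.55 and KO replicate 1 at -0.19 and -0.31 relative to the EV mean.

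ABCC4 and ABCC5 export cyclic nucleotides and nucleotide analogues. ABCC5 had 11.6 and 9.69 FPKM in the KO libraries, against 12.3 and 12.2 FPKM in the EV libraries. The groups did not overlap, although KO replicate 1 was at 94.3% of the EV mean and KO replicate 2 at 78.9%. ABCC4, which also carries prostaglandins and urate, had 9.76 and 11.9 FPKM in KO cells and 11.9 and 10.8 FPKM in EV cells. Here the groups overlapped, and the log2 difference of -0.06 was smaller than its SE of 0.12. ABCC10, a pump for taxanes and other drugs, was the one pump with both KO libraries above both controls, at 5.70 and 5.85 FPKM in KO cells against 4.93 and 5.06 FPKM in EV cells. Its log2 difference was 0.18 (SE 0.09).

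ABCB1 and ABCG2, the pumps best known from drug resistance, were at low levels in every library. ABCB1 had 0.887 and 0.517 FPKM in the KO libraries against 0.487 and 0.533 FPKM in the EV libraries, so KO replicate 1 was above and KO replicate 2 between the controls. At the estimated depths these values stand for about 53 and 32 fragments in KO cells and 30 and 34 in EV cells. ABCG2 had 0.304 and 0.451 FPKM in KO cells against 0.455 and 0.361 FPKM in EV cells, about 17 and 26 fragments against 26 and 22. Neither reached the minimum level, so neither was in the main fit, and a difference was not tested. ABCB1 overlaps RUNDC3B on the opposite strand, which had 1.79 and 1.93 FPKM in KO cells and 1.13 and 1.19 FPKM in EV cells. Whether counting used strand is not given in the sources here, and the part of RUNDC3B in the ABCB1 values was not tested.

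**Figure D2:**
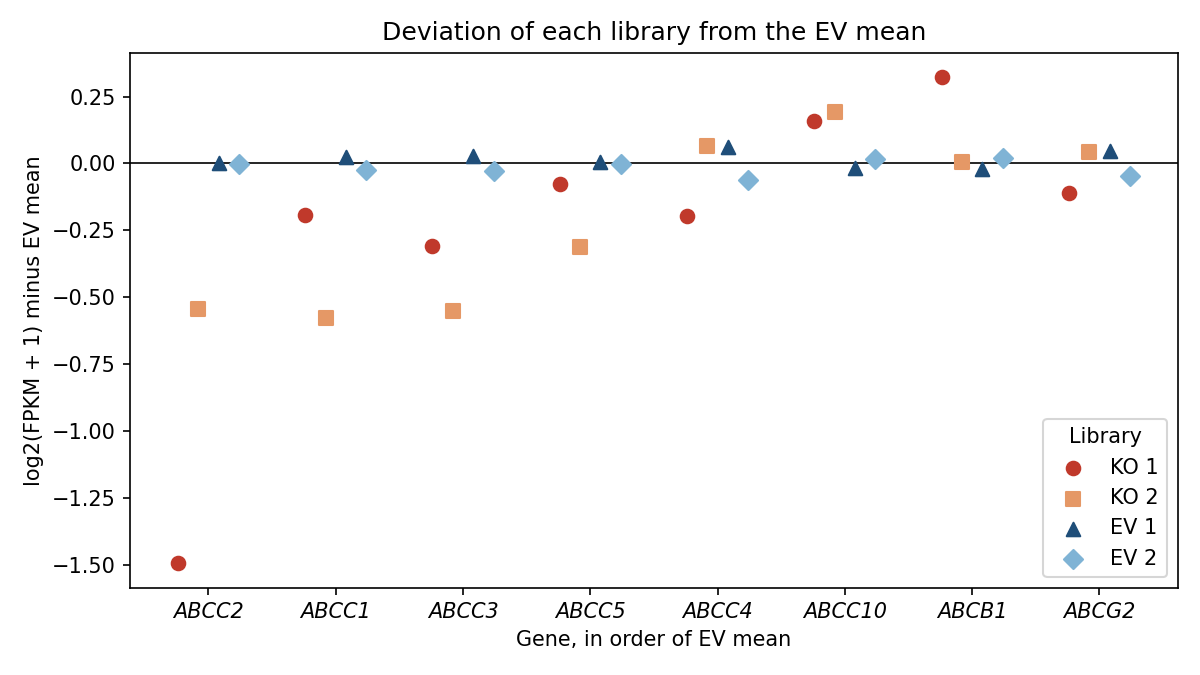
Deviation of each library from the mean of the EV libraries on the log2(FPKM + 1) scale for the 8 efflux pump genes, 1 point per library. ABCC2 lies at -1.49 in KO replicate 1 and -0.54 in KO replicate 2, ABCC1 and ABCC3 lie lowest in KO replicate 2, and ABCC10 lies above the controls in both KO libraries.

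In all, 4 of the 8 pumps (ABCC1, ABCC2, ABCC3 and ABCC5) had both KO libraries below both EV libraries, 1 (ABCC10) had both above, and 3 overlapped. Among the 6 tested pumps, 4 were below, 1 was above and 1 overlapped. Over all tested genes, 25.6% had both KO libraries below the controls and 26.5% both above. As the pumps were chosen on this comparison, nothing is read from the difference.

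The order of levels was the same in both EV libraries and changed in the middle in KO cells. In EV cells ABCC2 (89.2 FPKM on average) stood above ABCC1 (28.2), ABCC3 (13.5), ABCC5 (12.3), ABCC4 (11.3), ABCC10 (4.995), ABCB1 (0.510) and ABCG2 (0.408). The EV replicates of each pump did not overlap with those of its neighbours. The gap from ABCC5 to ABCC4 was, however, smaller than the difference between the ABCC4 replicates. ABCB1 (0.487 and 0.533 FPKM) and ABCG2 (0.455 and 0.361 FPKM) also lay close together in EV cells, both under the minimum level. In KO replicate 1 the middle order was ABCC5, ABCC3, ABCC4, and in KO replicate 2 it was ABCC4, ABCC5, ABCC3. KO values of these 3 genes overlapped. ABCC2 and ABCC1, 3.16-fold apart in the EV means, were at 31.0 and 24.6 FPKM in KO replicate 1 and at 60.8 and 18.6 FPKM in KO replicate 2.

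**Figure D3:**
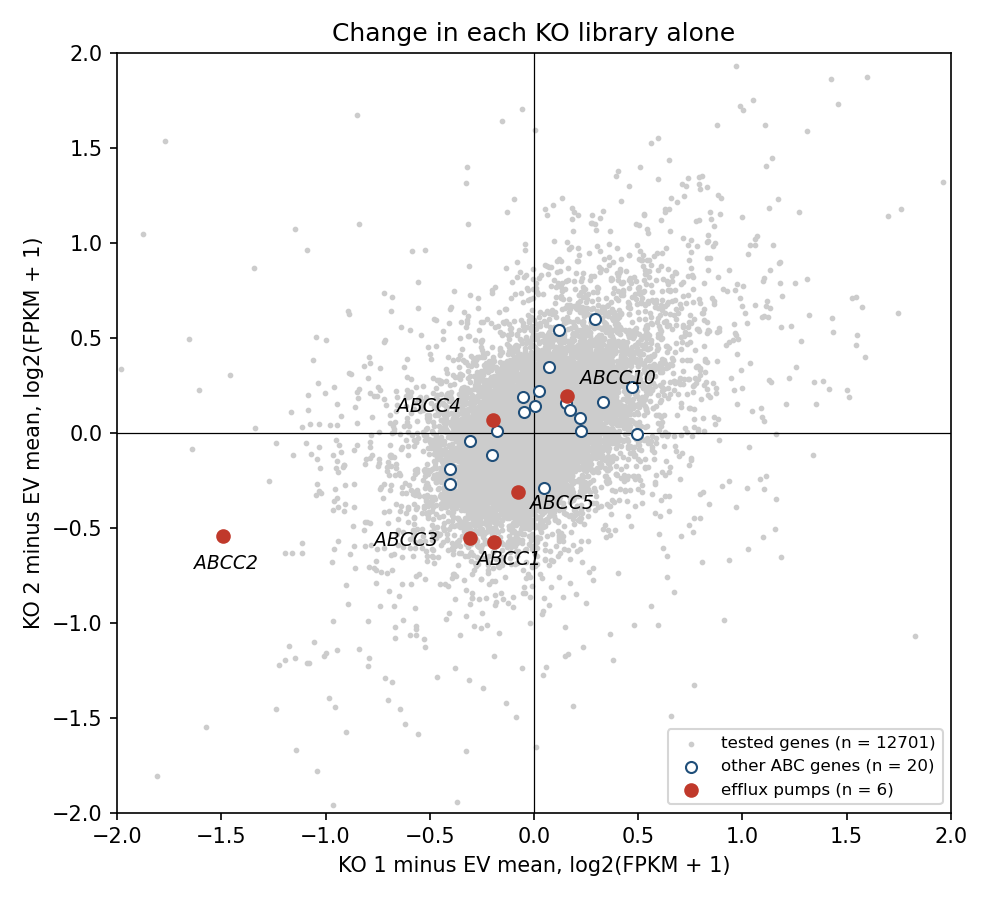
Change on the log2(FPKM + 1) scale in KO replicate 1 (horizontal) and KO replicate 2 (vertical), each against the EV mean, for 12701 tested genes (grey), 20 other ABC genes (open circles) and 6 efflux pumps (filled circles), with 74 genes outside the axes. ABCC2 lies at -1.49 and -0.54, away from the main cloud, while ABCC4, ABCC5 and ABCC10 lie within it; both axes share the EV libraries, so agreement between them is in part built in.

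The rest of the ABC family held 40 genes, of which 20 reached the minimum level. None passed the test in either direction (limma-trend, Benjamini-Hochberg adjusted p under 0.05 over all genes), where 0.110% of all tested genes did. Unadjusted p-values fell under 0.05 for 2 higher and 2 lower genes, where 9.23% and 7.22% of all tested genes did so. These unadjusted counts moved when single libraries were left out. The matching unadjusted shares over all genes are not given, so nothing is read from this. After adjustment, 3 of the 20 passed without KO replicate 1, where 10.9% of tested genes were called higher and 6.62% lower. Without KO replicate 2, 5 passed, where 6.29% were called higher and 6.94% lower. Both fits assume that the lone KO library varies like the EV controls. The median log2 change was 0.12, against 0.0031 over all tested genes. Both KO libraries lay above the controls for 9 of the 20 and below them for 4, against 26.5% and 25.6% of all tested genes. Among the mitochondrial and antigen-transport ABCB genes, TAP1, which feeds peptides to MHC class I, had 31.2 and 27.6 FPKM in KO cells against 24.5 and 24.7 FPKM in EV cells (adjusted p = 0.295). ABCB6 had 9.99 and 13.7 FPKM in KO cells against 9.15 and 9.08 FPKM in EV cells, and ABCB10 8.51 and 9.05 FPKM against 9.19 and 10.7 FPKM.

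Lipid carriers of the ABCA group gave ABCA3 (3.89 and 3.17 FPKM in KO cells, 2.33 and 2.75 FPKM in EV cells) and ABCA7 (12.04 and 12.08 FPKM in KO cells, 11.1 and 10.4 FPKM in EV cells), neither past the test. Of the ABCG genes other than ABCG2, ABCG4 alone was tested, at 1.37 and 1.93 FPKM in KO cells against 0.846 and 1.02 FPKM in EV cells. The ABCD genes of the peroxisome and lysosome overlapped between the groups. ABCE1 and the ABCF genes are not transporters but act in translation. ABCE1, which recycles ribosomes, had 47.2 and 51.9 FPKM in KO cells against 60.8 and 64.9 FPKM in EV cells (log2 change -0.34, SE 0.09, adjusted p = 0.224 in limma-trend). ABCF2 had 39.6 and 46.1 FPKM against 52.3 and 53.2 FPKM in the same order (adjusted p = 0.277).

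Within the ABCC subfamily outside the pumps, ABCC9, a subunit of potassium channels, was the 1 of 6 genes tested and overlapped between the groups. ABCC6, next to ABCC1 on chromosome 16, had 1.08 and 0.885 FPKM in KO cells and 0.615 and 0.190 FPKM in EV cells. It did not reach the minimum and is uncertain, because pseudogene copies can share its reads. The chloride channel gene CFTR was at 0.0123 FPKM in KO replicate 1 and listed at 0 in the others. ABCB4 and ABCB11, the phospholipid and bile salt pumps of hepatocytes, were listed at 0 in all 4 libraries.

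Enzymes that make the conjugates carried by ABCC pumps were then examined. Of 36 conjugating enzyme genes, 19 were tested and 0 passed (limma-trend). An unadjusted p under 0.05 was seen for 5 higher and 0 lower genes (9.23% and 7.22% over all tested genes), with a median log2 change of 0.17. Both KO libraries lay above the controls for 9 genes and below for 1, against 26.5% and 25.6% over all tested genes. The glutathione transferase genes GSTO1 (188 and 218 FPKM in KO cells, 158.4 and 158.9 in EV cells) and GSTM2 (3.81 and 2.99 in KO cells, 1.86 and 2.22 in EV cells) were among the 4 with the smallest p-values. TPMT, which methylates thiopurines, had 10.9 and 11.5 FPKM in KO cells against 8.83 and 8.70 FPKM in EV cells, and GSTA4 2.502 and 1.496 FPKM against 0.363 and 0.943 FPKM. Their adjusted p-values lay between 0.216 and 0.247. GSTM and SULT1A genes have close paralogs, so reads can be split between them.

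For glutathione, the co-substrate of ABCC1 and ABCC2, the list held genes of its synthesis, use and breakdown and of cystine uptake, of which 10 of 11 were tested with 0 past the threshold. Unadjusted p-values under 0.05 belonged to 1 higher and 2 lower genes (background 9.23% and 7.22%), and the median was -0.15 (limma-trend). Both KO libraries lay above the controls for 1 gene and below them for 5, against 26.5% and 25.6% over all tested genes. The cystine importer gene SLC7A11 had 4.90 and 3.28 FPKM in KO cells against 7.36 and 8.54 FPKM in EV cells (adjusted p = 0.204). GCLM, the regulatory subunit of glutamate-cysteine ligase, had 6.41 and 7.09 FPKM against 8.91 and 9.73 FPKM (adjusted p = 0.208). GPX1, a glutathione peroxidase gene, had 216 and 192 FPKM in KO cells against 244 and 230.4 FPKM in EV cells. The catalytic partner of GCLM, GCLC, named after its values were seen, had 24.7 and 25.9 FPKM in KO cells and 25.4 and 26.9 FPKM in EV cells. GGT1, which degrades extracellular glutathione, had 6.75 and 8.48 FPKM against 4.9998 and 4.7014 FPKM.

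Uptake carriers for organic anions and cations were mostly silent, with 8 of 34 listed genes tested and 0 past the threshold (limma-trend). An unadjusted p under 0.05 was seen in 1 higher and 0 lower genes (background 9.23% and 7.22%), with a median of 0.14. Both KO libraries lay above the controls for 4 genes and below them for 0, against 26.5% and 25.6% over all tested genes. SLC22A18, an organic cation carrier-like gene, had 18.2 and 20.1 FPKM in KO cells against 14.8 and 12.9 FPKM in EV cells (adjusted p = 0.208). SLCO1B3, whose liver form takes up bile acids and drugs, had 3.76 and 2.01 FPKM against 1.52 and 1.43 FPKM. Membrane scaffold genes gave 8 tested of 11 and 0 past the threshold, where 0.110% of all tested genes were. Unadjusted p-values under 0.05 were also seen for 0 (limma-trend, background 9.23% and 7.22%, median 0.06), and with 8 genes nothing is read from this. Both KO libraries lay below the controls for 3 and above them for 0, against 25.6% and 26.5% over all tested genes. Ezrin and radixin tie apical membrane proteins such as ABCC2 to actin. EZR had 622 and 562 FPKM in KO cells against 691 and 697 FPKM in EV cells, and RDX, named after its values were seen, 26.9 and 30.3 FPKM against 26.5 and 28.6 FPKM.

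Xenobiotic receptors and regulators of efflux genes formed the last list. Of 26 genes, 21 were tested and 0 passed (limma-trend). An unadjusted p under 0.05 was seen for 2 higher and 2 lower genes, near the background of 9.23% and 7.22%, with a median of 0.09. Both KO libraries lay above the controls for 7 genes and below them for 4, against 26.5% and 25.6% over all tested genes. PPARG had 20.8 and 16.1 FPKM in KO cells against 11.5 and 10.2 FPKM in EV cells (adjusted p = 0.190). KEAP1, which holds NRF2 in check, had 37.1 and 36.8 FPKM against 45.4 and 43.9 FPKM, and the dioxin receptor gene AHR 7.01 and 4.38 FPKM against 8.56 and 9.14 FPKM. Further genes were chosen after their values were seen. The NRF2 gene NFE2L2 had 54.3 and 52.4 FPKM in KO cells and 59.9 and 61.5 FPKM in EV cells. HNF4A stood at 0.253 FPKM in KO replicate 1 and 2.04 FPKM in KO replicate 2, against 2.02 and 1.61 FPKM in EV cells. NR1I2, the pregnane X receptor gene and a known activator of ABCB1 and ABCC2 in liver and gut, was at or under 0.0355 FPKM in every library, and the bile acid receptor gene NR1H4 was listed at 0.

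The genes next to ABCC2 on chromosome 10 were compared with those next to C14orf159 on chromosome 14, with gene order from RefSeq. The 5 tested genes on each side of C14orf159 differed from the EV mean by a median of -0.66 in KO replicate 1, and by 0.11 in KO replicate 2. Among the 5 tested genes on each side of ABCC2, both KO libraries were below both controls for 2 (COX15 and ERLIN1) and above them for 1 (GOT1), where 25.6% and 26.5% of all tested genes were. Differences from the EV mean ran from -0.47 to 0.53 in KO replicate 1 and from -0.74 to 0.60 in KO replicate 2, with medians of -0.06 and -0.12. CUTC, the nearest gene before ABCC2, had 31.9 and 52.7 FPKM in KO cells against 44.2 and 44.8 FPKM in EV cells, and DNMBP after it had 23.6 and 18.2 FPKM against 21.1 and 20.2 FPKM. No neighbour was as low as ABCC2 in KO replicate 1. In KO replicate 2 the neighbour DNMBP-AS1 (-0.74) was lower than ABCC2 (-0.54). None of the 8 pumps lies on chromosome 14: they are on chromosomes 16 (ABCC1), 10 (ABCC2), 17 (ABCC3), 13 (ABCC4), 3 (ABCC5), 6 (ABCC10), 7 (ABCB1) and 4 (ABCG2).

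**Figure D4:**
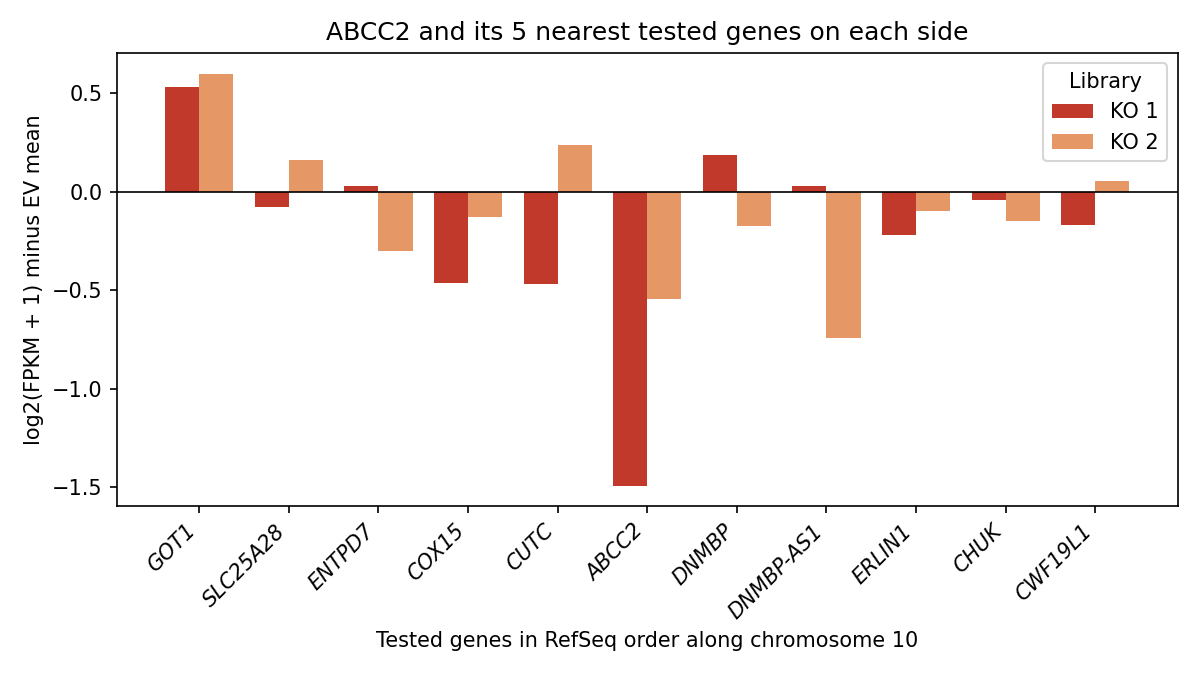
Bars give the difference from the EV mean on the log2(FPKM + 1) scale in KO replicate 1 and KO replicate 2 for ABCC2 and the 5 nearest tested genes on each side, in RefSeq order along chromosome 10. ABCC2 is at -1.49 in KO replicate 1, while its 10 neighbours lie between -0.47 and 0.53 there. In KO replicate 2 ABCC2 is at -0.54, and its neighbours lie between -0.74 (DNMBP-AS1) and 0.60.

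The 5 tested genes with the pattern nearest to ABCC2 were named by Euclidean distance over the 4 libraries, after subtraction of the EV mean on the log2(FPKM + 1) scale. They were POP1 (distance 0.31), HSP90AA1 (0.37), PHLDB2 (0.39), PACS2 (0.49) and SMARCC1 (0.52). POP1 had 9.05 and 13.8 FPKM in KO cells against 21.8 and 22.2 FPKM in EV cells. HSP90AA1, a cytosolic chaperone gene, had 676 and 1369.8 FPKM in KO cells against 1600.3 and 1667 FPKM in EV cells. HSP90AA1 and PACS2 lie on chromosome 14. All 5 had their lowest value in KO replicate 1, which follows from the way they were found.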

How the data were processed

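RNA from HCT116 cells was extracted with the miRNeasy kit and made into libraries with the TruSeq stranded mRNA kit, per the labels' protocols. The authors deposited FPKM for each gene symbol, and these were taken as they are. TopHat2 2.0.13, Bowtie2 2.2.3, SAMtools 0.1.19, Cuffnorm 2.2.1 and the build hg19 come from the submitters' processing notes. The annotation, the scaling between libraries and the use of strand are not given in the sources here. Depth per library is not given, and the fragments quoted are estimates: in genes with a single transcript (GENCODE release 29) of 1000 to 6000 nt, FPKM times length in kilobases was taken in a preset window of 0.06 to 0.1, and its median read as 1 fragment. Fragments of a pump used its longest principal transcript.

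Values were transformed to log2(FPKM + 1), which understates changes of low genes, and 12701 genes with at least 1 FPKM in at least 2 libraries were fitted with limma 3.58.1 (mean-variance trend, group as sole term, R 4.3.3), with Benjamini-Hochberg adjustment at 0.05 over all of them. The procedure was tested on simulated data with a common spread for all genes and both groups, taken from the EV libraries. The real KO libraries spread further, so that test does not show how the procedure performs here. With 2 libraries per group, a p-value reflects only how far these libraries spread, in part perhaps for technical reasons. The pumps, the lists and the tests were chosen with earlier results of these data known. Genes named were the pumps, up to 4 per list with the smallest p, and the 5 nearest in pattern to ABCC2. Some genes that this rule names are not reported here. ABCC6, CFTR, ABCB4, ABCB11, further markers and regulators, and genes that neighbour or overlap a pump fall outside it and were chosen after their values were seen. Alternatives were other pseudocounts, filters, scalings and limma settings, a replicate block, and leaving out each library. RefSeq (GRCh38.p14) gave gene order and promoters only, since the values rest on hg19, and GENCODE 29 the overlapping genes.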

Additional observations from a re-analysis of the deposited data

How the results depend on the processing

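The difference of ABCC2 stayed negative in every alternative run, with a range of -1.49 (without KO replicate 2) to -0.54 (without KO replicate 1). Of the other pumps, ABCC1, ABCC3 and ABCC5 stayed negative and ABCC10 positive, while ABCC4 (-0.20 to 0.07) and ABCG2 (-0.11 to 0.04) took both signs. For ABCC1, ABCC2, ABCC3, ABCC5 and ABCC10 the groups did not overlap. Leaving out a library or changing the pseudocount could therefore not alter their signs. The filters and limma settings left the differences themselves as they were, so nothing is read from the constant signs.

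Over all genes, 7 were higher and 7 lower. The counts of higher genes were 3 without a filter on low values, 3 in limma without the trend and 4 with the replicate block; those of lower genes were 3 without the filter and 4 with quantile normalization. Leaving out each library gave 6 to 1381 higher and 5 to 881 lower genes. Other ABC genes called ranged from 0 to 5 on leaving out a library (3 without KO replicate 1, 5 without KO replicate 2), and genes of the efflux-linked lists from 0 to 22 (22 without KO replicate 1, 15 without KO replicate 2); both were 0 in all other alternatives. The efflux-linked lists held 66 tested genes and the other ABC genes 20. Without KO replicate 1, 10.9% of all tested genes were called higher and 6.62% lower. Without KO replicate 2, the shares were 6.29% and 6.94%. Each of these fits rests on a lone KO library, so nothing is read from the list counts. Deviations of same-numbered libraries from their group means had a correlation of -0.0046 over tested genes, so no shared deviation by number was seen. Whether same-numbered libraries were prepared together is not given in the labels, and the correlation cannot decide it. The replicate block changed no call of a list gene. The median change of all tested genes was 0.0031, 0.00015 after median-of-ratios scaling and -0.014 after quantile normalization. ABCB1 and ABCG2 rest on about 17 to 53 fragments per library, and each group has 2 libraries; what these limit was not tested.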
